A study of Zea mays with 4 samples.

Results

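The microRNA family miR172 was followed through 4 small RNA libraries of maize (Zea mays) root tips. Its members were all entries of the deposited miRNA table whose name begins with zma-miR172, which gave 8 of 576 entries, or 8 of the 321 known miRNAs. The prefix zma stands for Zea mays and is left out of the names of other families and in figures. The entries come from 5 precursors, called a to e. For b, c and d the table lists both arms of the hairpin, named 3p and 5p after the end of the precursor they come from, and for a and e it lists 1 entry without an arm. RefSeq names the genes of 4 of the 5 precursors, b to e, in the maize assembly Zm-B73-REFERENCE-NAM-5.0, and none of them neighbours another.

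All plants were of 1 maize cultivar, Zhengdan 958, with no genetic change and no stress given in their labels, and were raised in nutrient solution. The early primary root (PRY) was sampled 3 days after germination, the seminal root (SR) at 7 days, and the crown root (CR) and the later primary root (PRO) at 15 days. The terminal 1 cm was taken in each case, from roots of about 3 to 5 cm in PRY, SR and CR. Each group had 1 library, and how many plants went into a library is not given in the sources used here. Every difference below is therefore between single libraries and has no replicate check. The crown root is shoot-borne, whereas the other root types are laid down in the seed. The table lists miRNAs alone, so the tissue labels could not be checked against marker genes.

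miR172 silences transcription factors of the AP2 type, by cutting their transcripts or by blocking their translation. In maize its known targets include glossy15, which keeps leaves juvenile, and indeterminate spikelet1, which acts in the inflorescence, and the mutant tasselseed4 is defective in the gene for zma-miR172e. miR172 acts opposite to miR156 in the shoot, where miR156 is high in young plants and miR172 in older ones. The 3p strand is the one known to guide silencing. The 5p strand is its partner in the duplex cut from the hairpin, often called the star strand.

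The values are RPM, the number of reads per 1000000 in a library. They were whole multiples of what 1 read is worth, and the totals recovered from them were 10721082 to 11572637 reads. A single read was worth 0.0864 to 0.0933 RPM. Intervals are 95% exact intervals and cover counting error only, because each group had 1 library. Amplified reads without molecular tags are not independent molecules, so even the counting error may be larger than the intervals show. In bulk tissue, fewer cells that make a miRNA and less of it in each cell cannot be told apart.

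The 3p entries zma-miR172b-3p, zma-miR172c-3p and zma-miR172d-3p and the entry zma-miR172a had equal values in every library, so these 4 entries are 1 measurement. Their shared level was 18.5 RPM in PRY (198 reads, interval 16.0 to 21.2) and 102.9 RPM in PRO (1138 reads, 97.0 to 109). It was 50.2 RPM in SR (581 reads, 46.2 to 54.5) and 24.6 RPM in CR (269 reads, 21.8 to 27.8). PRO was highest, then SR, then CR, then PRY, and no interval overlapped that of a neighbour in this order. PRO and CR, both sampled 15 days after germination, held the highest level and the next to lowest. Days after germination give the age of the seedling, and the age of the roots themselves is not given in the sources used here. By its highest entry, miR172 was the 13th most abundant of 29 known families in PRY and the 12th in CR. It was the 8th in PRO and the 9th in SR.

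zma-miR172b-5p, the star strand of precursor b, was at 2.52 RPM in PRY (27 reads, interval 1.66 to 3.66) and 26.7 RPM in PRO (295 reads, 23.7 to 29.9). It stood at 11.0 RPM in SR (127 reads, 9.15 to 13.1) and 4.21 RPM in CR (46 reads, 3.08 to 5.62). The order of the libraries was that of the 3p strand, but the intervals of PRY and CR overlapped. zma-miR172d-5p had 27, 296, 127 and 46 reads in PRY, PRO, SR and CR. It differed from zma-miR172b-5p by 1 read in PRO, so the b and d star strands also count as 1 measurement.

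zma-miR172c-5p, the star strand of precursor c, had values of its own. It was listed at 0 in PRY, where 3 reads would be 0.280 RPM, and had 40 reads in PRO, 4 in SR and 4 in CR. That is 3.62 RPM in PRO (interval 2.58 to 4.93), 0.346 RPM in SR (0.0942 to 0.885) and 0.366 RPM in CR (0.0998 to 0.938). PRO lay above the other 3 libraries without overlap, and PRY, SR and CR could not be told apart. zma-miR172e, the product of the tasselseed4 precursor, had 3 reads in PRO, 2 in PRY, 1 in SR and 0 in CR. The highest of these is 0.271 RPM, and differences of zma-miR172e were not detectable at this depth. The 8 entries thus held 5 distinct sets of values, 2 of them 1 read apart.

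**Figure D1:**
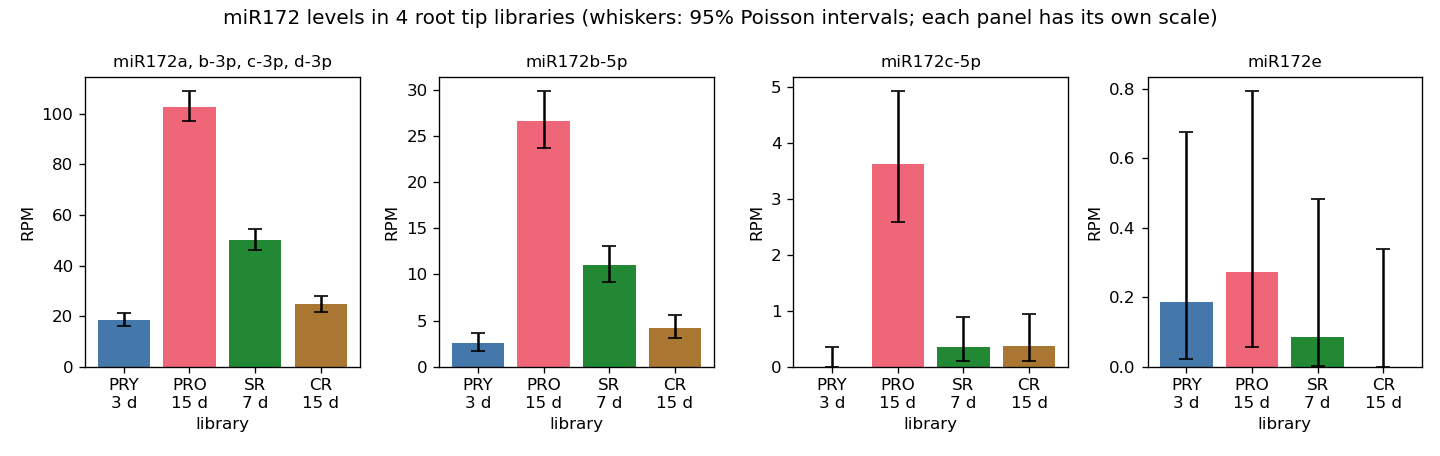
Level in RPM (vertical axis, a separate scale in each panel) of the 4 entries with equal values, of miR172b-5p, of miR172c-5p and of miR172e in 1 library each of PRY, PRO, SR and CR. Bars are the values and whiskers are 95% exact Poisson intervals; PRO has the tallest bar in every panel, but for miR172e the whiskers overlap throughout.

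The strands were then set against each other within each library, a ratio that needs no scaling. For precursor b, 13.6 reads of 5p were found for every 100 of 3p in PRY (interval 8.77 to 20.4), and 25.9 in PRO (22.7 to 29.5). The ratio was 21.9 in SR (17.9 to 26.5) and 17.1 in CR (12.2 to 23.4). The 3p strand was thus the more abundant in every library, by 7.33 reads to 1 in PRY and 3.86 to 1 in PRO. Since the 3p reads are shared by precursors a to d, these ratios do not describe the hairpin b alone.

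The 5p strand was higher relative to 3p in PRO than in PRY, 1.90-fold (interval 1.24 to 3.02), and in SR than in PRY, 1.60-fold (1.01 to 2.61). The ratio in CR was 1.25 times that in PRY, with an interval of 0.734 to 2.17 that includes 1. PRO exceeded CR 1.52-fold (1.07 to 2.18), and the interval for PRO over SR, 0.937 to 1.51, includes 1. By these values the libraries rank PRO, SR, CR, PRY, as they do by the level of either strand, though neighbours in this order overlap.

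Relative strand levels moved in pairs of several families, some of them with nearly equal values. Of 37 distinct pairs of strands with enough reads in PRY and PRO, 21.6% had a ratio of minor to major strand at least 2-fold higher in PRO, and 13.5% at least 2-fold lower. The b pair lay below that size, and the c pair, with 0 reads of 5p in PRY, was among those counted as higher. The c pair had 3.51 reads of 5p for every 100 of 3p in PRO (2.50 to 4.82), 0.688 in SR (0.187 to 1.77) and 1.49 in CR (0.402 to 3.85). In PRY it had 0, and 3 reads would give 1.52. Against that floor the ratio in PRO was 2.32-fold higher, and the lower limit of the exact interval for PRO over PRY was 1.78. Over the 4 libraries together, the b pair held 22.6 reads of its minor strand for every 100 of the major one, and the c pair 2.20. Among 39 pairs with at least 10 minor-strand reads in 1 library the median was 2.20. This is the value of the c pair itself, at place 20. Fewer minor-strand reads than that minimum were found for 33 other pairs. Of the 39, the b and d pairs, which are close to the same measurement, took places 15 and 14 from the top.

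The 2 measured star strands also differed from each other, a contrast chosen after its values were seen. For every 100 reads of zma-miR172b-5p there were 13.6 of zma-miR172c-5p in PRO (interval 9.49 to 18.9) and 3.15 in SR (0.845 to 8.26). That is 4.31-fold more in PRO (1.51 to 16.9). CR, with 8.70 (2.27 to 23.8), overlapped both, as did PRY, with 0 of zma-miR172c-5p beside 27 reads of zma-miR172b-5p (0 to 14.6).

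**Figure D2:**
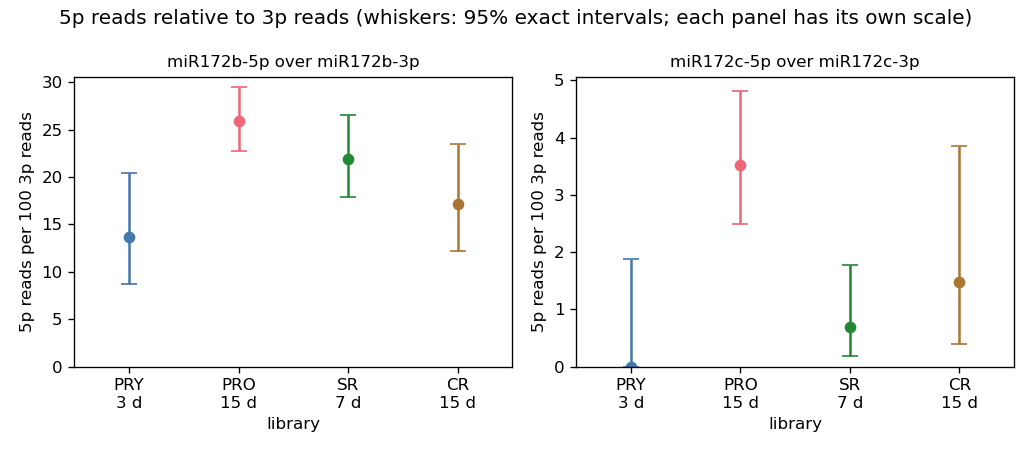
Reads of the 5p strand for every 100 reads of the 3p strand (vertical axis, a separate scale in each panel) for precursors b and c in each library. Points are ratios and whiskers 95% exact intervals; for b the ratio runs from 13.6 in PRY to 25.9 in PRO, and for c only the PRO and CR intervals reach above 2.

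Libraries were next compared pair by pair. Entries at 10 RPM or more in either library were compared. The threshold for counting an entry was a difference of at least 1 in log2(RPM + 1), which is 2-fold on that scale. Folds are ratios of RPM without the added 1. The 3p level was above 10 RPM in every library. The b and d star strands passed this minimum only through the library in which they were higher, except in SR against PRO, so their part in the counts below is a description. The 6 comparisons share libraries, so their results are not independent of each other. With other scalings the median of all compared entries moved by -0.73 to 1.09 on the log2 scale, and the balance of all calls moved with it. With the total over distinct miRNA entries, the split of higher and lower calls was 29 and 6 for PRO against PRY, 26 and 4 for SR against PRY, and 40 and 13 for CR against PRY. It was 15 and 5 for CR against SR, 10 and 10 for CR against PRO, and 5 and 5 for SR against PRO. With the library total these splits were 19 and 17, 18 and 30, 17 and 25, 6 and 17, 3 and 27, and 2 and 17. The order of the libraries by zma-miR172a stayed the same in all 6 scalings.

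Within the primary root, the 15-day library was set against the 3-day library. The 3p strand was 5.57-fold higher in PRO (interval 4.79 to 6.51), and 5.57- to 7.93-fold over 6 scalings. zma-miR172b-5p was 10.6-fold higher (7.13 to 16.3). zma-miR172c-5p, below the minimum, had 0 reads in PRY. It was 12.9-fold higher in PRO against a floor of 3 reads in PRY, and the lower limit of the exact interval was 10.04. All 6 entries that reached the minimum, which are 2 measurements, were counted as higher, against 18.6% of 102 entries in all. Their median log2 difference was 2.42, which is the shared 3p value, where that of all compared entries was -0.17. Outside the family, 5 entries had a larger difference than zma-miR172a.

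The seminal root was compared with the early primary root as another root type, at 7 against 3 days. The 3p strand was 2.72-fold higher in SR (2.31 to 3.21), and 2.72- to 4.83-fold over 6 scalings. zma-miR172b-5p was 4.36-fold higher (2.86 to 6.87). The same 6 entries were counted as higher, against 17.8% of 101, and the 4 of the 3p value alone with a pseudocount of 10. The median log2 difference of the 6 was 1.40, again the shared 3p value, against -0.65 for all compared entries.

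With the library total, the crown root library differed least from the early primary root by its miR172 level. This held in 4 of 6 scalings, and in the other 2 CR was closer to SR. The 3p strand was 1.33-fold higher in CR (1.11 to 1.61), and 1.31- to 2.88-fold over 6 scalings. Of the 4 entries that reached the minimum 0 were counted, where 16.8% of 101 entries were higher and 24.8% lower. zma-miR172b-5p, below the minimum, was 1.67-fold higher (1.02 to 2.80). The log2 difference shared by the 4 entries was 0.40, against a median of -0.64 for all compared entries. With the total over distinct miRNA entries all 4, which share their values, were counted as higher, against 39.6% of all 101 entries. With the total of the highest entry of each family all 4 were as well, against 26.7%.

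At the same seedling age of 15 days, the crown root was compared with the later primary root. The ages of the roots may differ, and root length, about 3 to 5 cm in CR, is not given for PRO. The 3p strand was 4.18-fold lower in CR (3.65 to 4.79), and 2.75- to 5.67-fold over 6 scalings. zma-miR172b-5p was 6.33-fold lower (4.63 to 8.84) and zma-miR172c-5p, below the minimum, 9.88-fold lower (3.57 to 38.0). All 6 entries that reached the minimum, 4 of them with equal values, were counted as lower, against 28.4% of 95. Of the 27 entries behind that share, 6 were these and 12 were of miR156. The median log2 difference of the 6 miR172 entries was -2.02, the shared 3p value, against -0.31 for all compared entries. Outside the family, 3 entries fell further than zma-miR172a.

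The seminal root lay between these extremes. Against PRO, the 3p strand was 2.05-fold lower in SR (1.85 to 2.27) and zma-miR172b-5p was 2.43-fold lower (1.97 to 3.02). All 6 entries were counted as lower, against 17.5% of 97, but the log2 difference of the 3p strand, -1.02, lay just past the threshold. With any of the 5 other scalings 0 were counted, and the 3p strand was 1.53- to 1.67-fold lower. zma-miR172c-5p was 10.5-fold lower in SR (3.78 to 40.3), with 4 against 40 reads.

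Between crown and seminal roots the 3p strand was 2.04-fold lower in CR (1.76 to 2.36), and 1.68- to 3.40-fold over 6 scalings. Its log2 difference of -0.998 fell just short of the threshold. zma-miR172b-5p was 2.61-fold lower (1.85 to 3.73), and it and zma-miR172d-5p were the 2 of 6 entries counted as lower, against 18.5% of 92. Those star strands reached the minimum through SR alone. The count was between 0 and 6 with other settings, and 5.43% to 33.7% of all compared entries were lower with other scalings.

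**Figure D3:**
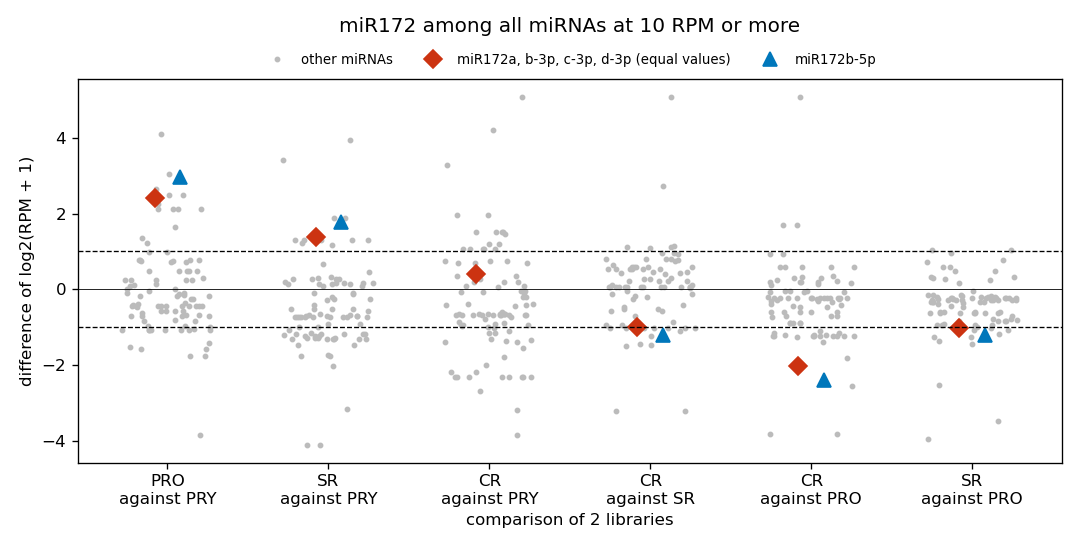
Difference of log2(RPM + 1) between the 2 libraries of each of 6 comparisons (vertical axis), with each entry at 10 RPM or more as a grey point, the 4 entries of equal value as a diamond and miR172b-5p as a triangle. Dashed lines mark differences of 1 and -1; miR172 lies above 1 for PRO and SR against PRY, below -1 for CR against PRO, and near -1 for the remaining comparisons with a lower level. miR172b-5p has no point for CR against PRY, where it was below the minimum.

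miR156, which silences SPL transcription factors, was set beside miR172 because the shoot is known for opposite changes of these families. Reads of miR156d-5p, the highest miR156 entry, outnumbered those of zma-miR172a 1126 to 1 in PRY (interval 980 to 1301). The ratio was 102 in PRO (96.5 to 109), 175 in SR (162 to 191) and 186 in CR (165 to 210). It does not depend on scaling. PRY had the highest ratio, 11.0-fold above PRO (9.46 to 12.9), 6.42-fold above SR (5.45 to 7.58) and 6.06-fold above CR (5.03 to 7.32). SR and CR overlapped, with a quotient of 0.944 (0.814 to 1.09). These values are those of the abundant miR156 entries. For miR156k-5p, which is less abundant, the ratio to zma-miR172a was 52.3 in PRY, 47.2 in CR, 29.5 in PRO and 26.5 in SR. Its ratio in PRY was thus 1.77 times that in PRO and 1.11 times that in CR, and SR had the lowest. For miR156j-5p the ratio was 2.51 in PRY, 1.83 in CR, 1.01 in SR and 0.554 in PRO.

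The levels behind these ratios differed. In PRO, zma-miR172a was at 102.9 RPM and miR156d-5p at 10527, against 18.5 and 20801 in PRY. In CR, zma-miR172a was at 24.6 and miR156d-5p at 4576 RPM. miR156 and miR529 both target SPL transcripts. Of their 25 entries 13 reached the minimum in each comparison, all of miR156. The 10 most abundant had nearly equal values, at 20284 to 20801 RPM in PRY, and are close to 1 measurement. In CR against PRY 11 were lower with the library total and with each of the 5 other scalings, where 24.8% of all compared entries were lower with the library total. The remaining counts rest on the scaling. In PRO against PRY 9 were lower and 1 higher, against 16.7% lower in all, and 0 to 9 were lower with other scalings. In SR against PRY 11 were lower, against 29.7% in all, and 0 with every other scaling. In CR against PRO 12 were lower, against 28.4% in all, and 0 to 12 with other scalings. In CR against SR 9 were lower, against 18.5% in all, and 1 to 11 with other scalings. In SR against PRO, where all 6 compared miR172 entries were lower with the library total, 1 of the 13 was, and 0 with other scalings. miR529-5p reached 1.31 RPM at most, in PRY.

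**Figure D4:**
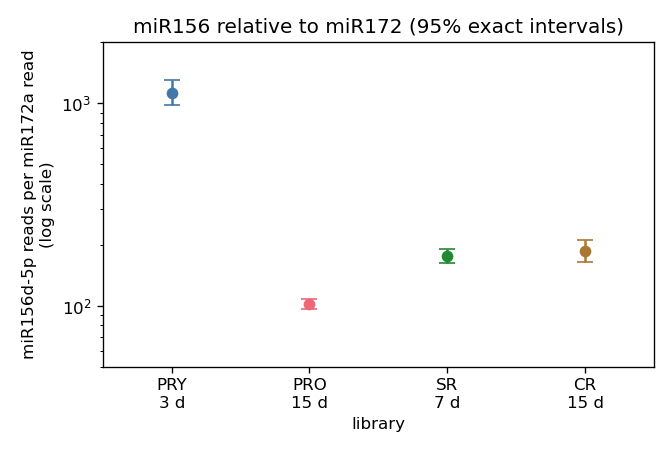
Reads of miR156d-5p for each read of miR172a (vertical axis, log scale) in the PRY, PRO, SR and CR libraries. Points are ratios and whiskers 95% exact intervals; PRY lies at 1126, PRO at 102, and SR and CR at 175 and 186 with overlapping whiskers.

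The profile of zma-miR172a was compared with those of 66 distinct known entries of other families by the distance between log2(RPM + 1) values centred over the 4 libraries, where 0 would be the same profile. The closest was miR156k-5p, at a distance of 0.80. Its level was 966 RPM in PRY, 3040 RPM in PRO, 1332 RPM in SR and 1163 RPM in CR. This is the order of zma-miR172a, whereas miR156d-5p was highest in PRY and lowest in CR. miR164e-5p, of the family that targets NAC transcription factors, followed at 0.80, with 105, 273, 168 and 113 RPM. miR167b-5p and miR167a-5p, which target auxin response factors, lay at 1.10 each, and miR390a-5p, which starts trans-acting siRNA production, at 1.26. For zma-miR172d-5p, the highest 5p entry, the first 4 were the same, at 1.18 to 1.35, and the fifth was miR528b-5p, of a family that targets transcripts of copper proteins, at 1.60. With 4 libraries, a short distance is a description only. By correlation in place of distance, 2 of the 5 nearest entries were kept for zma-miR172a and 3 of 5 for zma-miR172d-5p.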

How the data were processed

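By the labels' account, small RNA of 18 to 30 nt was gel-purified, joined to adapters and given 18 rounds of PCR before Solexa sequencing. No source used here names the aligner, the miRNA reference or the treatment of reads that match several precursors. The deposited values, called TPM in the file header, were treated as RPM normalized by the authors, and 100% came out as whole reads within 0.01 read. Whether the total covers all reads or mapped reads alone is not known.

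Folds and strand ratios were computed from recovered reads, with exact conditional intervals. As each group is a single library, edgeR's test had no spread to estimate, and no p-value is given. Alternatives were 5 other scalings (among them edgeR 4.0.16 TMM and DESeq2 1.42.0 size factors, R 4.3.3), a pseudocount of 10, no filter, a filter of 50 RPM, and identical entries counted once. Calls without a pseudocount and 5p sums were added after seeing the data. Strand pairs were compared when the major strand had 10 or more reads in both libraries and the minor strand 10 or more in 1. The ranking of pairs over all libraries required 10 major-strand reads in each and 10 minor-strand reads in at least 1. Named were all 8 members, the highest entry of miR156 and of miR529, and the 5 entries of other families closest to the highest 3p and 5p members. miR156j-5p was named outside this rule, for its ratio to zma-miR172a. Members and lists were chosen with earlier results of these data known. Code was tested on simulated data. Python 3.11.15 with pandas 2.3.3, numpy 2.4.6, scipy 1.17.1 and matplotlib 3.10.9 was used.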

Additional observations from a re-analysis of the deposited data

How the results depend on the processing

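Each group had 1 library, so leaving one out was not possible. For PRO against PRY, SR against PRY and CR against PRO, the number of members counted stayed at 6 with every scaling. It lay between 4 and 7 with other filters, and became 3 with identical entries counted once. The share of all compared entries counted the same way moved with the scaling. It was 18.6% to 28.4% in PRO against PRY, 17.8% to 25.7% in SR against PRY and 10.5% to 43.2% in CR against PRO. A pseudocount of 10 left 4 of the 6 for SR against PRY and 6 for the other 2. For CR against PRY, 4 were counted as higher with the total over distinct entries and with the highest entry of each family, and 0 with the other settings. Of all compared entries, 39.6% and 26.7% were higher with those totals, against 16.8% with the library total. For CR against SR, 0 were counted as lower with the total over distinct entries, a pseudocount of 10 or a minimum of 50 RPM. All 6 were with TMM factors, DESeq2 factors, the total without miR156 or no pseudocount. Of all compared entries, 33.7% were lower with TMM factors and 22.8% with DESeq2 factors or without miR156, against 5.43% with the total over distinct entries. For SR against PRO, 0 were counted as lower with each of the 5 other scalings and with a pseudocount of 10, and 3 with identical entries counted once. With sums over distinct entries, which count shared reads repeatedly, miR156 outnumbered miR172 6964 to 1 in PRY, 512 to 1 in PRO, 946 to 1 in SR and 1043 to 1 in CR. Strand ratios of the b pair stayed within their intervals when miR172c-5p reads were added. No fold turned direction among those counted. The causes were not tested. Depth limits miR172c-5p outside PRO and miR172e everywhere.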
